A study of Homo sapiens with 4 samples.

Results

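Small nucleolar RNA (snoRNA) host genes are transcribed into RNAs whose introns hold snoRNAs, and the 10 noncoding ones described here are GAS5, SNHG1, SNHG5, SNHG6, SNHG7, SNHG8, SNHG12, SNHG15, SNHG16 and ZFAS1. They were taken by name from the 55764 gene names of the table, and all 10 were found. RNA was sequenced in bulk from TE5, a human oesophageal squamous cell carcinoma line. In 2 libraries the cells stably carried a lentiviral vector in which a CMV promoter drives human ETS1, a transcription factor of the ETS family, and in 2 control libraries they carried the empty backbone (genotype given as WT). The labels do not say whether the cells were a clone or a pool, or whether libraries 1 and 2 of a group came from separate cultures, so p-values measure the spread between these libraries, which may be technical.

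A snoRNA is cut out of the intron of its host and guides the modification of ribosomal RNA. Box C/D snoRNAs direct ribose methylation and box H/ACA snoRNAs direct the conversion of uridine to pseudouridine. The spliced host RNA that is left carries no long reading frame. Many of these RNAs begin with a terminal oligopyrimidine (TOP) stretch, a C followed by further C and T letters, as ribosomal protein mRNAs do. TOP RNAs are tied to growth through mTORC1, and several host RNAs are known to be degraded by nonsense-mediated decay when they are translated.

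The starts of the host RNAs are shown first because they carry the feature by which the family is known. Of the 10 genes, 9 had at least 1 GENCODE 29 transcript that begins with C and continues with C or T for a run of at least 4 letters (read along the RNA). Over tested genes with GENCODE 29 transcripts, 24.6% of 12045 had at least 1. Such starts were found in 27 of the 136 transcripts of the 10 genes (19.9%) and in 4.08% of the 106259 transcripts of all tested genes. SNHG15 had none among its 10 transcripts, and annotated starts may differ from those used in TE5. The starts below are the first 30 bases of GENCODE 29 transcripts, 5′ to 3′, with the pyrimidine run in capitals. GAS5 and SNHG16 lie on different chromosomes and open with the same 11 letters.
GAS5: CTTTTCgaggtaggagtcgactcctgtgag
SNHG16: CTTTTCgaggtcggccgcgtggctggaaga
SNHG12: CCTTTCTCCCCgccgcattcccggtgtcga
SNHG8: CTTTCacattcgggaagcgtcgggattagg

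Promoters were searched for TATAA, the core of the TATA box. RefSeq promoters (GRCh38.p14, 250 bases before to 50 after the start) were matched for 8 of the 10 genes; SNHG6 and SNHG15 were not matched. The letters TATAA, searched on the gene's strand between 40 and 20 bases before the start, were present in 5 of these 8 and in 4.07% of 27305 promoters. Of the 3 without a match, the RefSeq windows of GAS5 and SNHG1 do not hold the pyrimidine start found in GENCODE 29. That start belongs to 6 of 29 GAS5 transcripts and to 1 of 25 SNHG1 transcripts. The search for these genes was thus made at a start other than that one. The 5 with TATAA are shown from 50 bases before to 30 bases after the RefSeq start, on the gene's strand, with TATAA in capitals. They lie at chr6:85678704-85678783 (SNHG5, minus strand), chr9:136728155-136728234 (SNHG7, minus), chr4:118278712-118278791 (SNHG8, plus), chr1:28581844-28581923 (SNHG12, minus) and chr20:49278592-49278671 (ZFAS1, plus).
SNHG5: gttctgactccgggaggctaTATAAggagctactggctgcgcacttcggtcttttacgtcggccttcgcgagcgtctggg
SNHG7: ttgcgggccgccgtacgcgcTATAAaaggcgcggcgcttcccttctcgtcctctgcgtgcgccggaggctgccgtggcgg
SNHG8: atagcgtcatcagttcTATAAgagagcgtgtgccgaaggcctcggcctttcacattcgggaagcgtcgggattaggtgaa
SNHG12: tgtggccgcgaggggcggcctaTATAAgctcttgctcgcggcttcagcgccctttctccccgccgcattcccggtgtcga
ZFAS1: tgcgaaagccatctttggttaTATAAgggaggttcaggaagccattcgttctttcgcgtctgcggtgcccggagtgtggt

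ETS factors bind DNA around the letters GGAA. On either strand of the 300 bases, GGAA was present in 8 of 8 host promoters and in 95.5% of all promoters. The longer CCGGAA, whose matches are also matches of GGAA, was present in 2 of 8 (SNHG8 and SNHG16) and in 17.6% of all promoters. A match of letters is a description of the sequence and not a binding site.

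Levels are in FPKM, the authors' fragment counts per kilobase and per library depth. Recovered reads numbered 40356722 and 44119605 in the controls and 57269982 and 56502877 in the ETS1 libraries, and each host gene rested on at least 2235 reads in every library. ETS1 itself had 0.491 and 0.509 FPKM in the controls and 1.84 and 1.87 FPKM in the ETS1 libraries, a ratio of 3.71 (log2 change 0.93, limma adjusted p 0.000704). Of 5 squamous markers, KRT5, KRT14, KRT6A and TP63 were absent (listed at 0) from the control values and reached no more than 0.0165 FPKM with ETS1, while SOX2 rose from 2.72 and 3.13 to 3.52 and 3.82 FPKM (log2 change 0.25, limma adjusted p 0.0301). Of the simple epithelial markers, KRT8 rose by 0.62 on the log2 scale (limma adjusted p 0.000591) and KRT18 fell by 0.29 (adjusted p 0.00223). EPCAM went from 1.37 and 1.36 FPKM in the controls to 0.915 and 1.12 FPKM with ETS1 (limma adjusted p 0.0525). CDH1, too low to be tested, went from 0.571 and 0.567 to 1.08 and 0.916 FPKM. Of the mesenchymal markers, VIM rose by 0.39 from 242 and 239 to 316 and 314 FPKM (limma adjusted p 0.000679) and COL1A1 by 0.30 (adjusted p 0.00599), while PDGFRB had at most 0.0570 FPKM. The part of these marker changes in the host genes' values was not tested. The blood cell markers PTPRC and CD3E stayed at or under 0.0696 FPKM, and CD14 lay between 0.301 and 0.372 FPKM in all libraries. The name squamous is thus that of the label.

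All 10 host genes had lower FPKM in both ETS1 libraries than in both controls, and 9 of them fell past the threshold, an adjusted p under 0.05 in limma on log2(FPKM + 1) over all 14306 tested genes. No host gene rose. In bulk RNA, less of a host RNA per cell and fewer cells that make it cannot be told apart. In the same fit 59.1% of all tested genes were called, 28.4% lower and 30.7% higher. Both ETS1 values lay under both control values for 38.9% of tested genes. The median log2 change of the 10 genes was -0.60, where the median of all tested genes was 0.016. Of the 10, 7 were called with a log2 change under -0.5, as were 5.64% of all tested genes. The 10 genes were chosen with earlier results of these data known, so the shares set side by side are a description and not a test. The host genes are abundant RNAs, and abundant genes were lower more often: among the 2658 tested genes with a mean of at least 20 FPKM, where 9 of the 10 lie, 52.0% were called lower with a median of -0.13. At a mean of at least 100 FPKM, where 5 of the 10 lie, 61.6% of 404 tested genes were called lower with a median of -0.18. With quantile normalization the median of the 10 was -0.45. The part of abundance in the host genes' fall was not tested. In the authors' deposited table all 10 genes have an adjusted p under 0.05, with log2 fold changes from -1.20 to -0.15, where 25.9% of the 15683 genes with an adjusted p are called lower.

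**Figure D1:**
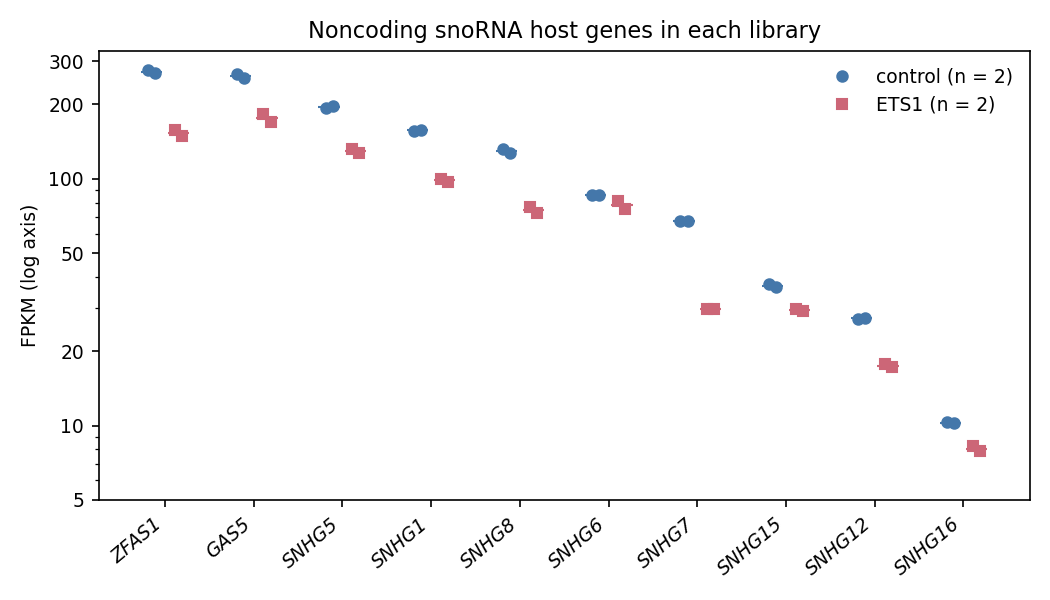
FPKM (log axis) of the 10 noncoding host genes in each of the 2 control libraries (circles) and 2 ETS1 libraries (squares), with the mean of each pair as a short line, ordered by control level. For each gene both squares lie under both circles, with the narrowest gap for SNHG6 and the widest ratio for SNHG7.

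The hosts of box C/D snoRNAs are described first. ZFAS1 (chromosome 20, 49278178 to 49295738, plus strand), which hosts the SNORD12 family, was the most abundant in the controls, with 276 and 267 FPKM in the controls and 158 and 149 FPKM in the ETS1 libraries. The groups do not overlap, and the mean was 43.5% lower. Its log2 change was -0.82 (SE 0.041, limma adjusted p 0.000486, lower in 2 of 2 ETS1 libraries).

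GAS5 (chromosome 1, 173863900 to 173868882, minus strand), named for its accumulation in growth-arrested cells and known for the many C/D snoRNAs in its introns, had 265 and 257 FPKM in the controls. It had 184 and 169 FPKM in the ETS1 libraries, the widest spread between ETS1 libraries among the 10 genes in FPKM (SD 10.3, n = 2). The lower of the controls still lay well over the higher of the ETS1 libraries. The log2 change was -0.56 (SE 0.047, limma adjusted p 0.00109), a mean level 32.4% lower.

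SNHG5 (chromosome 6, 85660950 to 85678748, minus strand), host of the SNORD50 snoRNAs, had 193 and 197 FPKM in the controls and 132 and 128 FPKM in the ETS1 libraries. SNHG1 (chromosome 11, 62851988 to 62855914, minus strand), a classic host gene that carries SNORD22 and its C/D neighbours, had 157 and 158 FPKM in the controls and 100.2 and 97.3 FPKM in the ETS1 libraries. Both fell with groups far apart, SNHG5 by 0.59 (SE 0.029) and SNHG1 by 0.67 (SE 0.028) on the log2 scale, with limma adjusted p of 0.000482 and 0.000439. With quantile normalization SNHG5 fell by 0.38 and remained past the threshold.

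SNHG16 (chromosome 17, 76557766 to 76565348, plus strand), host of the SNORD1 snoRNAs, was the least abundant of the 10, with 10.3 and 10.2 FPKM in the controls and 8.26 and 7.87 FPKM in the ETS1 libraries. It fell by 0.31 on the log2 scale (SE 0.037, limma adjusted p 0.00244).

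SNHG6 (chromosome 8, 66921684 to 66926398, minus strand), host of SNORD87, was the gene that did not pass. It had 85.6 and 85.9 FPKM in the controls and 81.3 and 75.2 FPKM in the ETS1 libraries, so the groups do not overlap, but the ETS1 libraries lay farther from each other than the nearer one did from either control. Its log2 change was -0.13 (SE 0.043, 95% interval -0.24 to -0.019, limma adjusted p 0.0504), at percentile 31.1 of the changes of all tested genes. The call depended on the processing: the authors' deposited table gives an adjusted p of 0.0110, and with quantile normalization the change was 0.0077 (limma adjusted p 0.887). Over the 14 alternatives its adjusted p ran from 0.00522 to 0.887.

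The hosts of box H/ACA snoRNAs included the largest fall. SNHG7 (chromosome 9, 136721366 to 136728184, minus strand), which holds SNORA17A and SNORA17B, had 67.1 and 67.3 FPKM in the controls and 29.7 FPKM in each ETS1 library. Replicates were nearly equal in both groups, and the mean was 55.8% lower. The log2 change was -1.15 (SE 0.025, limma adjusted p 0.000254), and 39 of the 14306 tested genes had a lower one.

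SNHG8 (chromosome 4, 118278709 to 118279823, plus strand), a short gene that hosts SNORA24, had 132 and 127 FPKM in the controls and 76.5 and 72.6 FPKM in the ETS1 libraries. Its groups are well apart, with a log2 change of -0.79 (SE 0.038, limma adjusted p 0.000482) and a mean 42.6% lower. SNHG12 (chromosome 1, 28578538 to 28583132, minus strand), which holds H/ACA snoRNAs and the C/D snoRNA SNORD99, had 27.1 and 27.4 FPKM in the controls and 17.8 and 17.2 FPKM in the ETS1 libraries. It fell by 0.61 (SE 0.030, limma adjusted p 0.000486). SNHG15 (chromosome 7, 44983023 to 44986961, minus strand), host of SNORA9, had 37.3 and 36.5 FPKM in the controls and 29.63 and 28.99 FPKM in the ETS1 libraries. It fell by 0.32 (SE 0.029, limma adjusted p 0.00126), and by 0.21 with quantile normalization, still past the threshold.

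**Figure D2:**
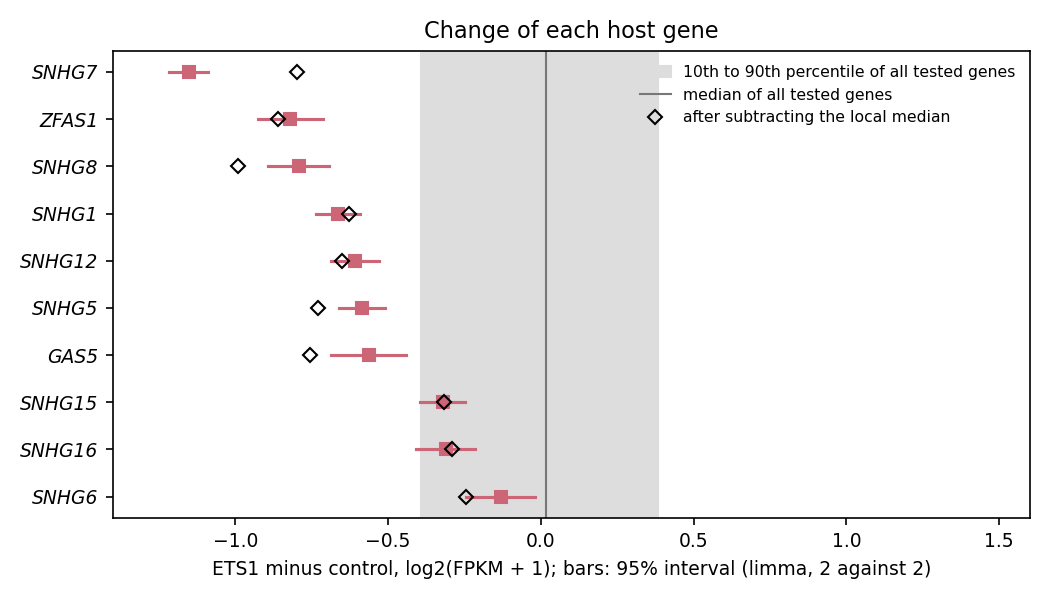
Log2 change of each host gene, ETS1 minus control on log2(FPKM + 1), with limma 95% intervals (squares and bars, 2 libraries against 2), and the same change after subtracting the median change of tested protein-coding genes within 5 Mb (open diamonds). SNHG7 is lowest at -1.15 and SNHG6 highest at -0.13; 7 of the squares lie below the grey band, the 10th to 90th percentile of all tested genes (-0.39 to 0.38).

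The order of the changes was SNHG7, ZFAS1, SNHG8, SNHG1, SNHG12, SNHG5, GAS5, SNHG15, SNHG16 and SNHG6, from the largest fall to the smallest. Neighbours in this order had overlapping 95% intervals except SNHG7 and ZFAS1 (-1.22 to -1.09 against -0.93 to -0.71) and GAS5 and SNHG15 (-0.69 to -0.44 against -0.40 to -0.25). Differences between host genes were not tested. In the order of control levels, ZFAS1 and GAS5 (272 ± 6.39 and 261 ± 5.60 FPKM, SD, n = 2 each) were highest and SNHG16 (10.2 ± 0.0667 FPKM) lowest. In the ETS1 libraries GAS5 (176 ± 10.3 FPKM) stood above ZFAS1 (154 ± 6.73 FPKM), the other way round from the controls. The host genes share the same 4 libraries, so they are not independent of each other. All 10 were higher in ETS1 library 1 than in ETS1 library 2, where 49.2% of all tested genes were, and 5 of 10 were higher in control library 1 than in control library 2. This difference between the ETS1 libraries was small beside the fall for every host gene but SNHG6: it was at most 0.12 on the log2 scale.

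The gene models bear on these levels. The length the authors divided by, inferred from the tables, was within 2% of the union of GENCODE 29 exons for 7 of the 10 genes. For ZFAS1 it was 1094 bases of a union of 2243, for SNHG5 2207 of 2806 and for SNHG12 3382 of 4266. Levels between genes are compared per length, so the place of these 3 in the order depends on the length used. The exon union covers 3756 of the 3927 bases of SNHG1, 3647 of 3939 for SNHG15 and 4266 of 4595 for SNHG12, so reads of unspliced RNA can count toward their levels. Spliced and unspliced host RNA were not told apart.

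The snoRNAs inside these introns were hardly measured. RefSeq and GENCODE 29 place 36 named snoRNA genes within the 10 hosts, of which 22 are listed in the table. Of the 6 with recovered reads, only SNORD99 of SNHG12 had more than 20 in a library, and the other 16 listed had at most 0.726 FPKM. It had 50.1 and 43.3 FPKM in the controls and 38.8 and 31.4 FPKM in the ETS1 libraries, from 148, 140, 163 and 130 reads in that order. SNORD78 of GAS5 had 10 and 17 control reads and 14 and 20 ETS1 reads. For SNORD12 of ZFAS1 the control reads were 14 and 11 and the ETS1 reads 18 and 14, from deeper libraries. SNORD12B of the same host had 10 and 14 control reads and 13 and 7 ETS1 reads. SNORD12C had 4 and 5 control reads and 6 and 2 ETS1 reads, and SNORD1B of SNHG16 had 4 and 2 against 3 and 9. These libraries describe the host RNAs and hold few reads at the snoRNA genes, SNORD99 apart. Reads of a mature snoRNA and of host RNA at the same place were not told apart.

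Genes that lie at the same place as a host often changed differently. PRSS12, a protease gene on the other strand whose nearer end is 215 bases from that of SNHG8, had 4.09 and 3.95 FPKM in the controls and 5.22 and 5.08 FPKM in the ETS1 libraries. It rose by 0.29 (SE 0.040, limma adjusted p 0.00367), while SNHG8 fell. ZBTB37, a zinc finger gene that starts 800 bases from GAS5 on the other strand and overlaps it, rose from 1.42 in both controls to 2.28 and 2.36 FPKM (log2 change 0.45, SE 0.052, limma adjusted p 0.00223). GAS5-AS1, antisense to GAS5, had 3.92 and 3.42 FPKM in the controls and 4.42 and 4.37 FPKM in the ETS1 libraries, a rise of 0.21 (limma adjusted p 0.0377). The authors' use of strand is not given in the sources used here, so reads of overlapping genes on opposite strands may be shared or dropped, and their values are uncertain.

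ZNFX1, which starts 248 bases from the start of ZFAS1 on the other strand and overlaps it, changed by 0.049 (95% interval -0.076 to 0.17, limma adjusted p 0.416). Its FPKM was 2.06 and 2.10 in the controls and 2.18 and 2.19 in the ETS1 libraries. SLC3A2, an amino acid transporter subunit that starts 188 bases from SNHG1 on the other strand, fell by 0.099 (95% interval 0.023 to 0.18 lower, limma adjusted p 0.0375), where SNHG1 fell by 0.67. The overlapping genes on the other strand FAM69B (at SNHG7) and TRNAU1AP (at SNHG12), named like GAS5-AS1 after their values were seen, fell by 0.49 and 0.20. In each of the 6 pairs of a host and a protein-coding gene given here the host's 95% interval lay wholly under that of the other gene; the differences themselves were not tested.

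**Figure D3:**
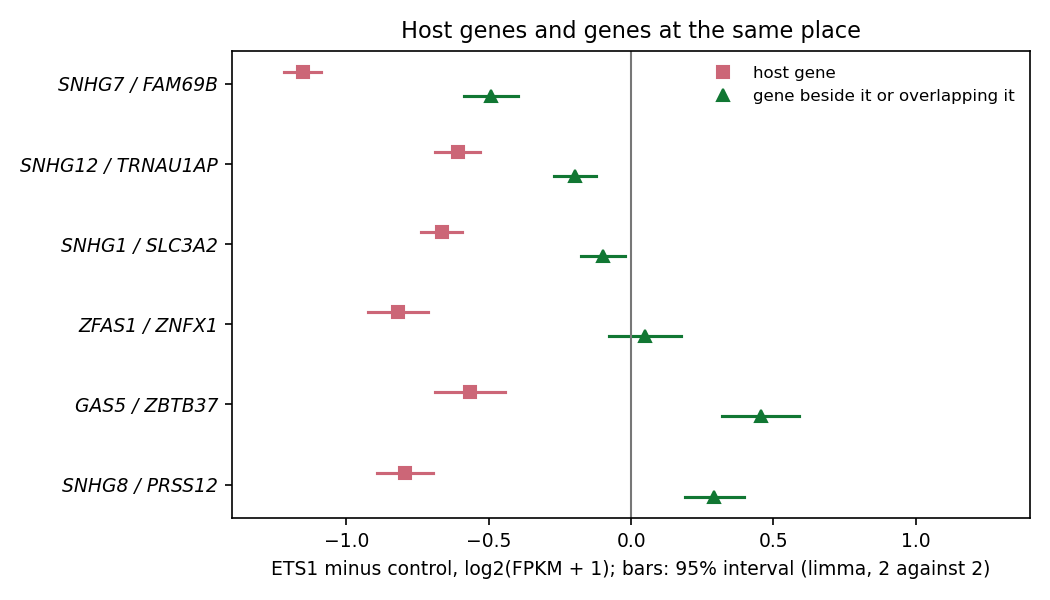
Log2 change, ETS1 minus control on log2(FPKM + 1), of 6 host genes (squares) and of a gene beside or overlapping each (triangles), with limma 95% intervals from 2 libraries against 2. PRSS12 (0.29) and ZBTB37 (0.45) lie above 0 while their hosts lie below -0.5, and in no pair do the intervals overlap.

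Position in the genome was also compared. The nearest tested protein-coding genes on either side of the 10 hosts, 20 in all, had a median log2 change of -0.016, with 9 called lower, 6 higher and 5 not passing, where 28.4% of all tested genes were called lower and 30.7% higher. The median change of tested protein-coding genes within 5 Mb was between -0.038 and 0.20 for 9 of the hosts. For SNHG7 it was -0.35 over 84 genes, and with AGPAT2 (-0.57) and TMEM141 (-0.57) its nearest tested neighbours fell too. Both nearest neighbours also fell for SNHG1 (WDR74 at -0.50 and SLC3A2 at -0.10) and SNHG12 (RCC1 at -0.47 and TAF12 at -0.26). CGA, 1406750 bases from SNHG5, changed by -1.13 (limma adjusted p 0.00101). With the local median removed SNHG7 fell by 0.80 and remained past the threshold. For SNHG8 (local median 0.20), GAS5 (0.19) and SNHG5 (0.14) the same step made the falls larger, at 0.99, 0.76 and 0.73. For SNHG6 (local median 0.11) the change went from -0.13 to -0.24 and passed the threshold (limma adjusted p 0.00522). The adjusted p of this step takes the local median, over 19 genes for SNHG6, as a fixed value. It concerns the change beside that median and not the fall itself.

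Other noncoding snoRNA hosts were examined as a second list. Of 21 names, 14 were in the table, 4 of them under the filter of a mean of 1 FPKM. Of the 10 tested, 8 fell, 1 rose and 1 did not pass, with a median of -0.45. DANCR, a noncoding RNA known for keeping progenitor cells undifferentiated, had 106 and 103 FPKM in the controls and 52.6 FPKM in each ETS1 library (log2 change -0.97, SE 0.028, limma adjusted p 0.000369). SNHG3 fell by 0.88, SNHG9 by 0.74 and SNHG20 (listed as LINC00338) by 0.71. SNHG32 (listed as C6orf48) fell by 0.46, and it and the next gene were named after their values were seen. SNHG29, listed as C17orf76-AS1, rose from 132 and 135 to 151 and 148 FPKM (log2 change 0.16, limma adjusted p 0.00800). SNHG10 changed by -0.0039 (limma adjusted p 0.949). Among all 380 tested noncoding genes, by GENCODE type, 32.1% were called lower and the median was -0.055. These 380 include the 10 host genes, of which 9 were called lower.

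Genes of the proteins that bind or assemble snoRNAs formed a further list. Of 22 snoRNP proteins and assembly factors, all tested, 17 fell, 1 rose and 4 did not pass, with a median of -0.18. The share lower was 77.3%, beside 28.4% of all tested genes. It was 52.0% of those at 20 FPKM or more and 61.6% of those at 100 FPKM or more (median -0.18). Of this list only FBL and NOP10 reach a mean of 100 FPKM and several genes lie under 20 FPKM, so neither band matches the list in level. NOP10, a small subunit of H/ACA particles, had 312 and 323 FPKM in the controls and 156 and 153 FPKM in the ETS1 libraries (log2 change -1.03, SE 0.030, limma adjusted p 0.000369). It lies on chromosome 15. The methyltransferase of C/D particles, FBL, fell by 0.52, and its partners NOP58 and SNU13 (listed as NHP2L1) by 0.52 and 0.51. The remaining core C/D protein, NOP56, named after its values were seen, fell by 0.10 (limma adjusted p 0.0302). DKC1, the pseudouridine synthase of H/ACA particles and also named after its values were seen, fell by 0.37. The assembly factor SHQ1 rose by 0.19. With quantile normalization 11 of the 22 were called lower and 1 higher.

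Protein-coding genes that hold a snoRNA moved in both directions. Of 159 such genes placed by the annotation, 145 were tested, with 62 lower, 34 higher and 49 not passing and a median of -0.087. These are 42.8% lower and 23.4% higher, beside 28.4% and 30.7% of all tested genes. With quantile normalization 49 were lower and 44 higher. RPL12 fell by 0.66, C19orf48 by 0.62 and AIMP2 by 0.61, and TIMM23B, with 0.753 and 3.76 FPKM in the controls, changed by -0.72 without passing (limma adjusted p 0.242). A split by name chosen after the data were seen gave 17 of 27 ribosomal protein hosts lower (63.0%) with a median of -0.22, and 45 of 118 other hosts lower (38.1%) with a median of -0.026. Ribosomal protein genes with no annotated snoRNA were lower in 43 of 53 (81.1%), with a median of -0.24. C6orf48 counts among both the noncoding and the protein-coding hosts. EIF4A1 and RPL17, called higher, and PPAN, called lower, were named after their values were seen. They are also listed as parts of joined genes (SENP3-EIF4A1, RPL17-C18orf32 and PPAN-P2RY11). Reads that overlapping names share may be dropped, so the values of such genes are uncertain.

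**Figure D4:**
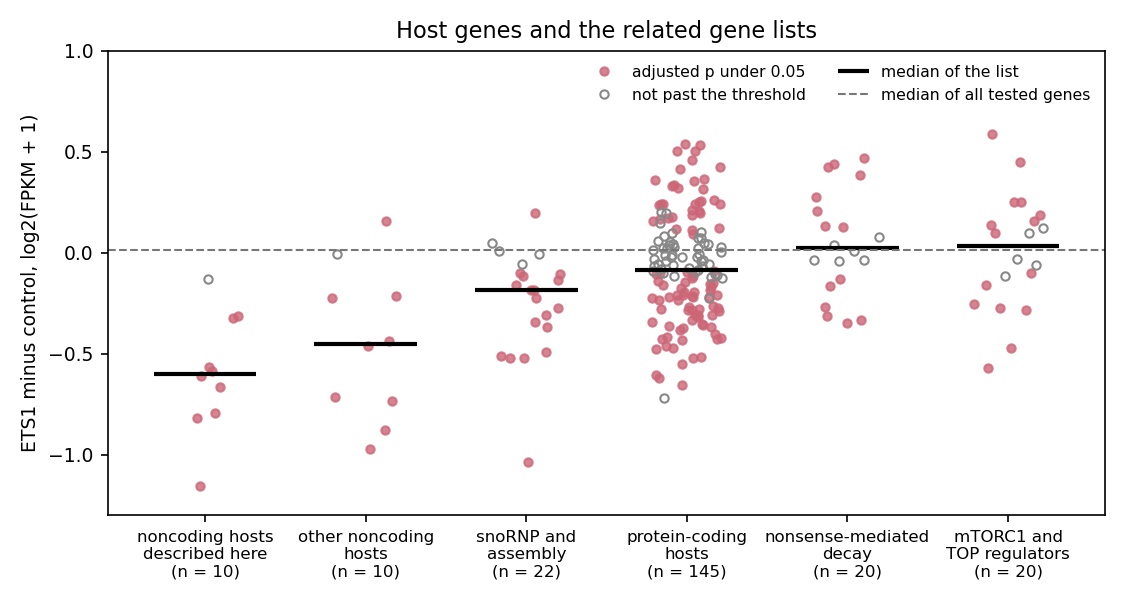
Log2 change, ETS1 minus control on log2(FPKM + 1), of each tested gene in 6 lists, with filled points for an adjusted p under 0.05, open points for genes past no threshold, a bar at each list's median and a dashed line at the median of all tested genes. The medians are -0.60 for the 10 noncoding hosts, -0.45 for other noncoding hosts and -0.18 for snoRNP genes, and lie near 0 for decay and mTORC1 genes.

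Both pathways that act on host RNAs had members that rose and members that fell, in shares near those of all tested genes (30.7% higher and 28.4% lower). Of 20 nonsense-mediated decay factors, 8 rose (40%), 6 fell (30%) and 6 did not pass, with a median of 0.025. At a mean of at least 5 FPKM the split was 5 higher and 6 lower. Those with the largest changes rose: the decapping enzyme DCP2 by 0.47, SMG8 by 0.44, the kinase SMG1 by 0.43 and the exonuclease XRN1 by 0.38. The core helicase UPF1 changed by -0.043 (limma adjusted p 0.346), and the exon junction proteins RBM8A and MAGOH fell by 0.35 and 0.31; these 3 were named after their values were seen. Of 20 mTORC1 and TOP mRNA regulators, 8 rose (40%), 7 fell (35%) and 5 did not pass, with a median of 0.033. TIA1, an RNA-binding protein that represses TOP mRNAs, rose by 0.59 and the translation repressor EIF4EBP2 by 0.45. EIF4EBP1 fell from 407 and 416 to 274 and 279 FPKM, and CNBP by 0.47.

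The same sequence features were counted over all tested genes, with the 10 hosts left out of the sets that have them. Of 2956 genes with a pyrimidine start in at least 1 GENCODE 29 transcript, 28.6% were called lower (median 0.027), beside 27.3% of 9080 without one (median 0.029). Of 224 genes with TATAA at the same place in the RefSeq promoter, 32.6% were called lower (median 0.0061), beside 26.9% of 8695 without it (median 0.040). These shares are descriptions without a test.

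**Figure D5:**
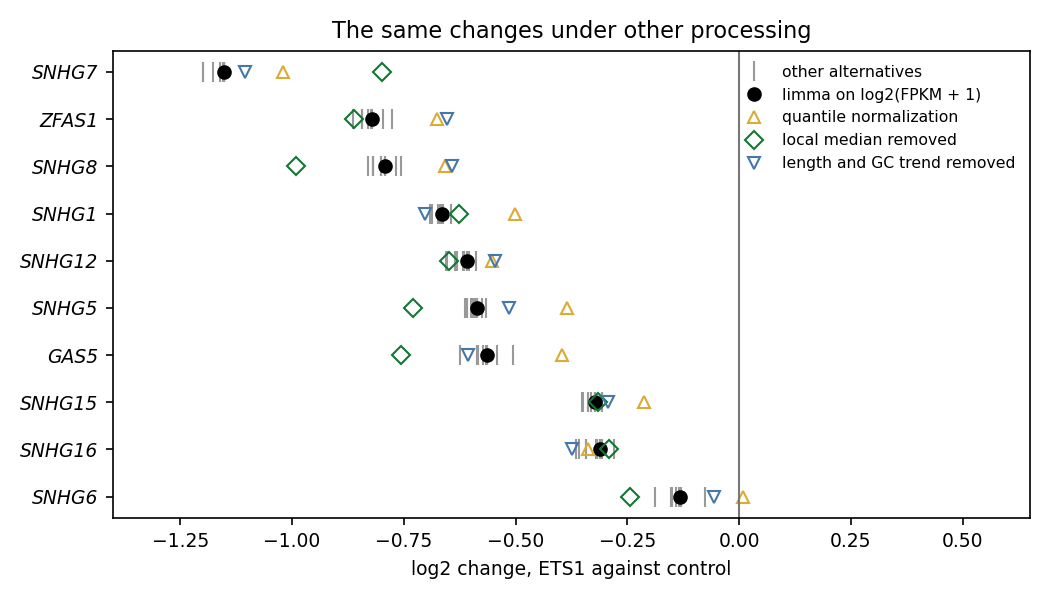
Log2 change of each host gene under the fit reported here (filled circle) and 14 alternatives, among them quantile normalization, removal of the local chromosomal median and removal of a length and GC trend (open symbols). SNHG6 alone reaches 0; the other 9 genes stay below -0.2 under each alternative shown.

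Across the 14 alternatives, 9 of the 10 host genes remained lower and past the threshold under every one, and SNHG6 was the exception. Removing a trend with gene length and GC content moved ZFAS1 to -0.65, SNHG8 to -0.64 and SNHG1 to -0.70. For 1 gene, the smallest two-sided p that exact permutation of 2 against 2 libraries allows is 0.333, and the adjusted p-values rest on the variance that limma shares across genes.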

How the data were processed

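The values are FPKM computed by the authors, per the file headers, for 2 control and 2 ETS1 libraries. The authors used HISAT2, HTSeq and DESeq2, with the builds hg38 and GRCh38, per the submitters' processing notes; versions, annotation and use of strand are not given in the sources used here. The authors' deposited comparison table also holds a mean normalized signal per gene, log2 fold changes with standard errors and p-values and adjusted p-values, per the file headers; whether its fold changes were shrunk is not stated. It holds 16652 genes, and 969 have no adjusted p-value.

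The planned test for FPKM was used: limma 3.58.1 in R 4.3.3 on log2(FPKM + 1), with 14306 genes at or above a mean of 1 FPKM, a group term, an intensity trend on the prior variance, two-sided, Benjamini-Hochberg over all tested genes, threshold 0.05. Fold changes on this scale understate the change of low genes. Reads were recovered from FPKM and the mean normalized counts; for 2885 genes of mean count below 100, 99.3% of values came out whole (tolerance 0.05). Replicates differed by more than counting noise (mean chi-square per gene 3.94 in each group), so none was counted as a repeat. Positions, types and GC come from GENCODE 29 on GRCh38, matched for 87.9% of tested genes; promoters come from RefSeq. Lists were matched by name or older name. In data simulated for this comparison, limma recovered 189 of 194 changed genes (97.4%) among 12516, with 18 false calls. Far fewer genes changed there than the 59.1% called here, so the share of false calls in the real comparison was not measured.

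The members and lists were chosen with earlier results of these data known. Named are the 10 host genes, ETS1, the cell type markers, at most the 4 tested genes of each list with the largest absolute change, the snoRNAs inside each host, the nearest tested protein-coding gene on either side and genes that start within 1 kb on the other strand; other names are marked where they stand or identify a single gene of a count. Alternatives were a pseudocount of 0.1, no filter, a filter at a mean of 5 FPKM, scaling by a trimmed mean, quantile normalization, a replicate block, the authors' deposited values, limma's voom on recovered reads, each library left out, and removal of the local chromosomal median or of a length and GC trend.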

Additional observations from a re-analysis of the deposited data

How the results depend on the processing

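The number of host genes called was 9 or 10 under the 14 alternatives, each of them lower, and 9 genes (all but SNHG6) kept their direction and side of the threshold. SNHG6 reversed to 0.0077 with quantile normalization and passed under 6 alternatives. Leaving out each library in turn gave SNHG6 values from -0.19 to -0.076; it passed without ETS1 library 1 (adjusted p 0.0252). The count of all genes called fell from 8451 to 5562 at a mean FPKM of at least 5, where 8215 genes were tested. The 5 related lists were run under 8 alternatives, and their total calls stayed within 1.5 times of those reported; by direction, snoRNP genes called lower went from 17 to 11 and decay factors called lower from 6 to 4 with quantile normalization, and decay factors called higher from 8 to 5 at a mean FPKM of at least 5. The labels give the replicate numbers 1 and 2 in both groups without saying what they share, and the differences between replicates in the 2 groups had a correlation across genes of -0.046, so the numbers were not taken as pairs. With the replicate block 9 host genes and 7283 genes in all were called. The replicate block gave 9 other noncoding hosts, 80 protein-coding hosts, 15 snoRNP genes, 12 decay factors and 10 mTORC1 and TOP regulators (5 higher and 5 lower). ETS1 passed under the 13 alternatives that tested it (its mean is under the filter of 5 FPKM), with log2 changes from 0.80 to 1.87. The host RNAs rest on at least 2235 reads in every library; of their 6 snoRNAs with recovered reads, 5 had at most 20.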
